A study of Mus musculus with 12 samples.

Results

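The integrins and laminins are 2 gene families that couple cells of the aortic wall to each other and to their matrix, and they were followed here in mouse aorta before and during a challenge that leads to aortic dissection (AD). Members were all genes whose symbol in the array's design is that of an integrin alpha or beta subunit or of a laminin alpha, beta or gamma chain, which gave 37 of the 34797 gene names on the array, 26 of them integrins and 11 laminins. They were measured by 51 probes. After probes that were not well above background on all 3 arrays of any group had been left out, 31 members (22 integrins and 9 laminins) were tested among 22769 genes, each by the brightest of its kept probes. Of these, 30 were well above background on all 12 arrays, and Itga2b, the alpha subunit of the platelet fibrinogen receptor, was so on 1 and 2 arrays of WT and on 2 and 3 arrays of smSocs3-KO without and with challenge. The 6 members left untested were Itga2, Itgad, Itgae, Itgb6, Lama1 and Lamb3.

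RNA of whole aorta from male mice was hybridised to 12 one-colour arrays, 3 in each of 4 groups. All mice were homozygous for a floxed Socs3 allele on a background labelled 129S5/SvEvBrd, C57BL6 and SJL. Mice labelled smSocs3-KO also carried a Cre transgene driven by the SM22 promoter, which is active in smooth muscle cells, and their littermates without the transgene are called WT. Of each genotype, 3 arrays held aorta without infusion (unchallenged) and 3 held aorta after 3 days of β-aminopropionitrile (BAPN, 150 mg/kg/day), an inhibitor of collagen and elastin cross-linking, with angiotensin II (AngII, 1000 ng/kg/min), a pressor peptide, both given by osmotic minipump (challenged). The comparisons ask how the aorta responds to BAPN + AngII and whether that response differs when Socs3, a feedback inhibitor of cytokine signalling, is targeted in smooth muscle. The ages of the mice are not given in the labels, nor whether each array is a separate mouse, so p-values measure only the spread between these arrays.

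An integrin is a receptor made of 1 alpha and 1 beta subunit that binds matrix proteins or proteins of other cells on the outside and the actin cytoskeleton on the inside. Leukocytes carry the beta2 integrins (Itgb2 with Itgal, Itgam or Itgax) and the alpha4 and beta7 integrins, which let them adhere to and cross the vessel wall, whereas vascular smooth muscle cells use mainly beta1 integrins such as alpha1beta1 for collagen, alpha7beta1 for laminin and alpha8beta1 for nephronectin and fibronectin. Laminins are trimers of an alpha, a beta and a gamma chain that form the sheet of the basement membrane around smooth muscle cells and beneath the endothelium.

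Some features of the arrays bear on every comparison. Between 55.4% and 61.2% of spots were well above background, no spot was saturated, and arrays of a group correlated at 0.964 to 0.992 over the tested genes. Socs3 itself was not lower under the smSocs3-KO label: its mean log2 signal was 0.45 ± 0.25 (SD, n = 3) in unchallenged and 1.72 ± 0.93 in challenged WT aorta, against 0.94 ± 0.63 and 3.24 ± 0.93 in the aortae labelled smSocs3-KO. SM22-Cre acts only in some cells of this tissue, and where the Socs3 probe lies relative to the deleted part was not determined, so the deletion was not seen in these data and the groups are named by their labels. Slide 1 held all 6 WT arrays and replicate 1 of unchallenged smSocs3-KO, and slide 2 held the other 5 smSocs3-KO arrays, so that at day 3 genotype and slide cannot be told apart. A fit with slide as a block takes the shift between slides from that single smSocs3-KO array against the other 2 unchallenged smSocs3-KO arrays. Every slide-block genotype difference, before challenge or at day 3, therefore rests on 1 array and is no slide-free estimate. The slide-block smSocs3-KO response compares arrays of slide 2 only and gives the same estimates as leaving that 1 array out. The same holds for the smSocs3-KO part of the slide-block mean response and of the difference between responses. Replicate 4 of challenged WT stood apart from replicates 1 and 3: the mean of 5 pan-leukocyte genes was 1.91 and 1.61 above unchallenged WT on replicates 1 and 3 and 0.12 below on replicate 4 (log2), and the mean of 10 contractile smooth muscle genes was 0.79 and 0.85 below on replicates 1 and 3 and 0.09 above on replicate 4.

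Itgam (CD11b), the alpha subunit of the complement receptor of macrophages and neutrophils, has to be read probe by probe. It has 3 kept probes, all on the plus strand of chromosome 7 (mm9), and the first 30 of the 60 bases of each are shown because the brightest, which stood for the gene in the fit, begins with a simple repeat, here in capitals.
Itgam probe at chr7:135261755-135261814: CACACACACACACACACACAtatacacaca
Itgam probe at chr7:135260275-135260334: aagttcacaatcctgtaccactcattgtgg
Itgam probe at chr7:135212140-135212199: tgttaaccagacaggtgccctctaccagtg
The capitals mark a run of alternating C and A over 20 bases. Only 24 of the 55681 probes on the array (0.0431%) hold such a run of at least 20 bases, no other member probe holds 1 longer than 5, and all 24 were kept as well above background.

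The repeat-bearing Itgam probe and the other 2 Itgam probes moved differently. On the probe with the run, the log2 signal was 7.66, 7.33 and 7.29 in unchallenged WT, 7.23, 7.72 and 6.94 in challenged WT, 8.22, 6.64 and 6.61 in unchallenged smSocs3-KO and 6.84, 6.75 and 6.38 in challenged smSocs3-KO. Unchallenged and challenged arrays overlapped in both genotypes, and the highest value was on the single smSocs3-KO array of slide 1. The median of the 23 other probes with such a run, which are assigned to other genes, was 6.87, 6.67 and 6.43 in unchallenged WT, 6.44, 7.02 and 6.24 in challenged WT, 7.62, 5.41 and 5.49 in unchallenged smSocs3-KO and 6.06, 5.72 and 5.26 in challenged smSocs3-KO. The highest and the lowest array were the same on both, and the day 3 difference between genotypes was negative for all 23 (median -0.83) as it was for the Itgam probe (-0.64). What part the repeat has in this probe's signal was not tested.

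**Figure D1:**
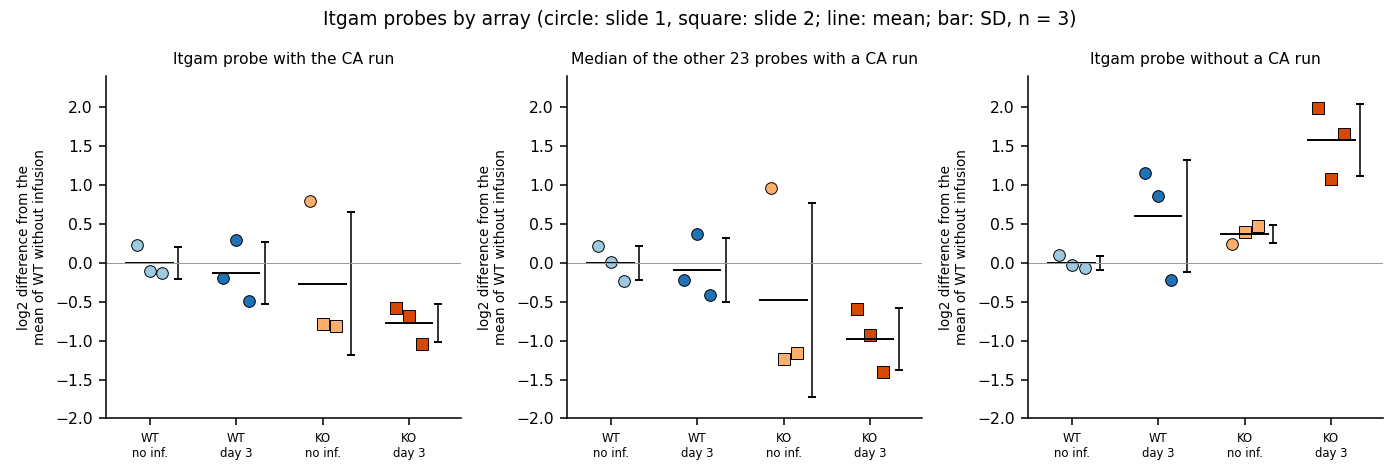
Log2 signal of an Itgam probe with a CA run, of the median of the 23 other probes with such a run, and of an Itgam probe without one, each as the difference from its mean in WT aorta without infusion (no inf.). Points are arrays, lines are group means and bars SD (n = 3), and KO stands for the label smSocs3-KO. The probe without the run is the one at chr7:135260275-135260334, picked for its lower p in the mean challenge response. Of the 3 panels, only this probe lies above 0 on all 3 challenged smSocs3-KO arrays. The third Itgam probe, not shown, was -3.63, -4.04 and -3.44 on these arrays, beside a mean of -4.00 in unchallenged WT.

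Of the 2 Itgam probes without the run, the one at chr7:135260275-135260334 was well above background on all 12 arrays. Its log2 signal was -2.33, -2.46 and -2.50 in unchallenged WT, -1.27, -1.57 and -2.65 in challenged WT, -2.19, -2.03 and -1.96 in unchallenged smSocs3-KO and -0.44, -1.35 and -0.77 in challenged smSocs3-KO. The smSocs3-KO groups did not overlap, and in WT the overlap came from replicate 4. Tested as a probe of its own, it was 0.90 higher with challenge in the mean of both genotypes (SE 0.23, limma adjusted p over all kept probes = 0.0224), with 0.60 in WT (adjusted p = 0.270) and 1.20 in smSocs3-KO (adjusted p = 0.0752). The third probe, well above background on 9 arrays, differed by 0.39 in the mean (SE 0.26, limma adjusted p = 0.291), and the probe with the run by -0.31 (SE 0.27, limma adjusted p = 0.414).

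The leukocyte integrins were led by Itgb2 (CD18), the beta subunit that Itgal, Itgam and Itgax share. On a scale where 0 is the 75th percentile of an array, its log2 signal was -1.31, -1.23 and -1.56 in unchallenged WT, 0.74, 0.47 and -1.0 in challenged WT, -1.39, -0.94 and -0.34 in unchallenged smSocs3-KO, and 1.31, 0.65 and 1.12 in challenged smSocs3-KO. Challenged arrays lay above unchallenged ones of the same genotype without overlap, with replicate 4 of challenged WT nearest to the unchallenged arrays. Averaged over both genotypes Itgb2 rose 3.20-fold (log2 difference 1.68, SE 0.30, limma adjusted p = 0.00708), a call that held in each of the 12 fits that leave out 1 array (1.51 to 1.95). Within smSocs3-KO it rose by 1.92 (SE 0.42, limma adjusted p = 0.0429), and within WT the difference was 1.44 (SE 0.42, limma adjusted p = 0.0675).

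Itgb2 was the only member called in either genotype on its own. In smSocs3-KO 1 of 31 members was called higher, where 1.71% of all genes were, and in WT none was called, where 4.68% of all genes were. In WT 9 members had an unadjusted p below 0.05, as did 26.6% of all genes. Groups did not overlap for 9 members in WT (all genes 35.3%) and 8 in smSocs3-KO (all genes 28.1%), so these shares are no higher among members than among all genes. The smSocs3-KO call of Itgb2 depended on arrays: it held without replicate 4 of unchallenged smSocs3-KO (2.20, limma adjusted p = 0.0459) and without replicate 1 or 4 of challenged WT, and was lost without any of the other 9 arrays (1.67 to 2.11, limma adjusted p 0.0534 to 0.145) and with the slide as a block (1.67, limma adjusted p = 0.145). For this response the slide block gives the same estimate as leaving out replicate 1 of unchallenged smSocs3-KO, so it is no separate check. Without replicate 4 of challenged WT, 6 members were called in WT: Itgb2 (1.97), Lamb1 (1.05) and Lamc1 (0.75) higher and Lamc3 (-1.48), Itga10 (-1.35) and Lamb2 (-0.93) lower. In that fit calls rose among all genes as well, with 2267 of 22769 called higher and 1357 lower.

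The other leukocyte integrins did not pass the test. Besides Itgb2 and Itgam these were Itgal (CD11a, mean challenge difference 0.05), Itgax (CD11c, 0.43), Itga4 (the alpha subunit of the VCAM-1 receptor, 0.20) and Itgb7 (the beta subunit that pairs with Itga4 or Itgae, 0.11). Itgax varied most, from -2.53 to 1.11 among the challenged smSocs3-KO arrays. Over the 6 tested leukocyte integrins the median log2 difference with challenge was 0.32 with Itgam read from the probe without the run and 0.16 with the probe that holds it, beside -0.05 over all genes. Their mean per array, with the probe without the run, was 0.33 ± 0.54 above unchallenged WT in challenged WT and 1.0 ± 0.47 in challenged smSocs3-KO, against 0.21 ± 0.19 in unchallenged smSocs3-KO.

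Markers of leukocytes moved with Itgb2. All 5 pan-leukocyte genes rose in the mean challenge response (median 1.60), as did 8 of 9 macrophage and monocyte genes (median 1.31), and the summed linear signal of the pan-leukocyte genes ranged from 6.42 to 8.39 in unchallenged WT, 7.08 to 33.01 in challenged WT, 8.78 to 12.8 in unchallenged smSocs3-KO and 28.7 to 54.0 in challenged smSocs3-KO. Of 6 tested neutrophil genes 1 rose and 1 fell, and of 7 lymphocyte genes 2 fell, where 13.6% of all genes rose and 9.18% fell. In whole tissue a change in the number of cells of a type and a change in RNA per cell cannot be told apart, and the part of the leukocyte genes in the Itgb2 result was not tested.

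**Figure D2:**
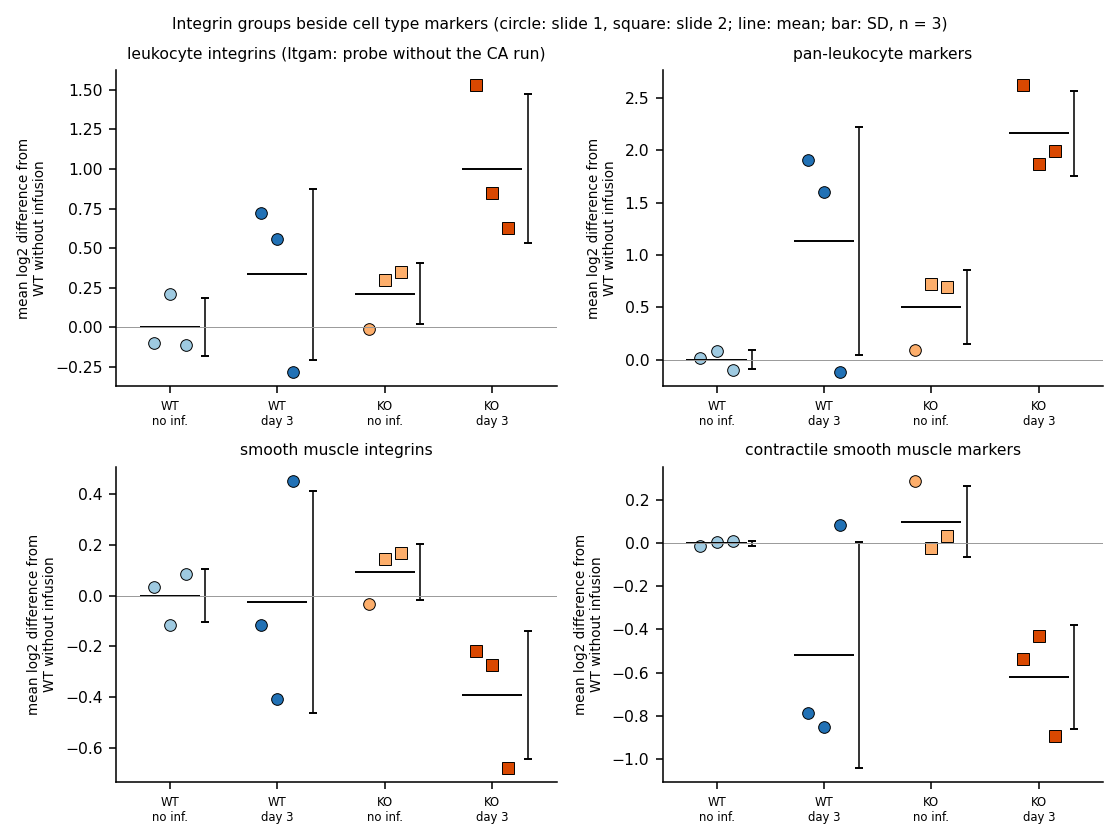
Mean log2 difference from WT aorta without infusion (no inf.) over the leukocyte integrins, the pan-leukocyte markers, the smooth muscle integrins and the contractile smooth muscle markers, by array; KO stands for the label smSocs3-KO, lines are group means and bars SD (n = 3). In challenged WT, 1 array (replicate 4) lies at -0.28 for the leukocyte integrins and at 0.45 for the smooth muscle integrins, on the other side of 0 from the other 2 arrays in each panel.

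Of the smooth muscle integrins (Itga1, Itga7, Itga8 and Itgb1) none was called in any comparison with all 12 arrays. Itga8, a marker of contractile vascular smooth muscle, was 7.39, 7.31 and 7.82 in unchallenged WT, 7.10, 6.38 and 8.04 in challenged WT, 7.08, 7.93 and 7.54 in unchallenged smSocs3-KO and 6.92, 7.24 and 5.97 in challenged smSocs3-KO. The groups overlapped in both genotypes, and replicate 4 of challenged WT was the highest of all 12 arrays. The mean challenge difference of Itga8 was -0.57 (SE 0.30, limma adjusted p = 0.187), with -0.33 in WT and -0.81 in smSocs3-KO. It was -0.79 without replicate 4 of challenged WT (limma adjusted p = 0.0510), where Itga1 was called lower (-0.54).

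The other 3 smooth muscle integrins gave smaller differences. Itga1 differed with challenge by -0.53 in smSocs3-KO (SE 0.28, limma adjusted p = 0.270) and Itga7, whose product binds laminin, by -0.47 (SE 0.20, limma adjusted p = 0.195), both without overlap of the groups. Itgb1, the beta subunit common to most matrix integrins, was 4.61, 4.52 and 4.62 in unchallenged and 5.05, 5.08 and 5.01 in challenged WT, a difference of 0.46 (SE 0.15, limma adjusted p = 0.0975), and differed by -0.12 in smSocs3-KO. The second Itgb1 probe gave 0.12 in WT and -0.43 in smSocs3-KO. All 4 genes pointed lower in smSocs3-KO (median -0.50, all genes -0.06) and 3 of 4 in WT (median -0.11, all genes -0.02), except that with arrays scaled on their median, which raised all challenge differences, Itgb1 was 0.088 in smSocs3-KO and Itga7 0.17 in WT, and with normexp Itga7 was 0.024 in WT. The WT direction also rested on single arrays: without replicate 3 of challenged WT all 4 pointed higher (median 0.083), without replicate 1 of unchallenged or of challenged WT 2 of 4 did, and without replicate 4 of challenged WT the median was -0.38.

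Contractile smooth muscle genes were lower beside them. In the mean challenge response 4 of 10 fell, where 9.18% of all genes did. These were Synpo2 (-1.13), the myosin heavy chain Myh11 (-1.09), the kinase Mylk (-0.83) and the transcription factor cofactor Myocd (-0.62). All 10 contractile genes pointed lower (median -0.55). Their mean per array was -0.52 ± 0.52 in challenged WT and -0.62 ± 0.24 in challenged smSocs3-KO, relative to unchallenged WT. The part of these genes in the smooth muscle integrin values was not tested.

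Among the other collagen receptors, Itga10, the alpha subunit of a collagen receptor best known from cartilage, fell. Its log2 signal was 2.93, 3.17 and 2.81 in unchallenged WT, 1.02, 2.23 and 2.45 in challenged WT, 3.04, 2.37 and 2.52 in unchallenged smSocs3-KO and 1.25, 1.43 and 1.58 in challenged smSocs3-KO. Challenged and unchallenged arrays did not overlap in either genotype. Averaged over both it fell 2.22-fold (log2 difference -1.15, SE 0.23, limma adjusted p = 0.0104), called in all 12 fits that leave out 1 array (-1.29 to -0.93), with -1.07 in WT (limma adjusted p = 0.0785) and -1.22 in smSocs3-KO (limma adjusted p = 0.0728). A second probe of the gene, tested on its own, gave -1.07 (SE 0.22, limma adjusted p = 0.0106). It lies at chr3:96468383-96468442 and overlaps most of the first (chr3:96468377-96468436), so it is no independent reading of the gene. Itga11, the other tested collagen receptor, differed by -0.28 and was not called.

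The mean challenge response called 2 of 31 members higher and 2 lower, where 13.6% of all genes were called higher and 9.18% lower, and the median over the 31 members was -0.02 beside -0.05 over all genes. The 4 were Itgb2, Itga10 and the laminin gamma chains Lamc1 and Lamc3. With probes holding a CA run left out, Itgam was called too (0.90, limma adjusted p = 0.0215), which made 3 members higher and 2 lower. The tested subunits of receptors for fibronectin and other RGD or matricellular proteins (Itga5, Itgav, Itga9, Itgb3, Itgb5 and Itgb8) were not called. Neither were those of the epithelial and endothelial laminin receptors (Itga3, Itga6 and Itgb4). Over both sets the mean challenge differences ran from -0.23 (Itgb4) to 0.50 (Itga5). Several probes were kept for 11 members, and for 6 of them (Itga4, Itgal, Itgam, Itgb1, Itgb3 and Lama3) the probes pointed to different signs in the mean challenge response.

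**Figure D3:**
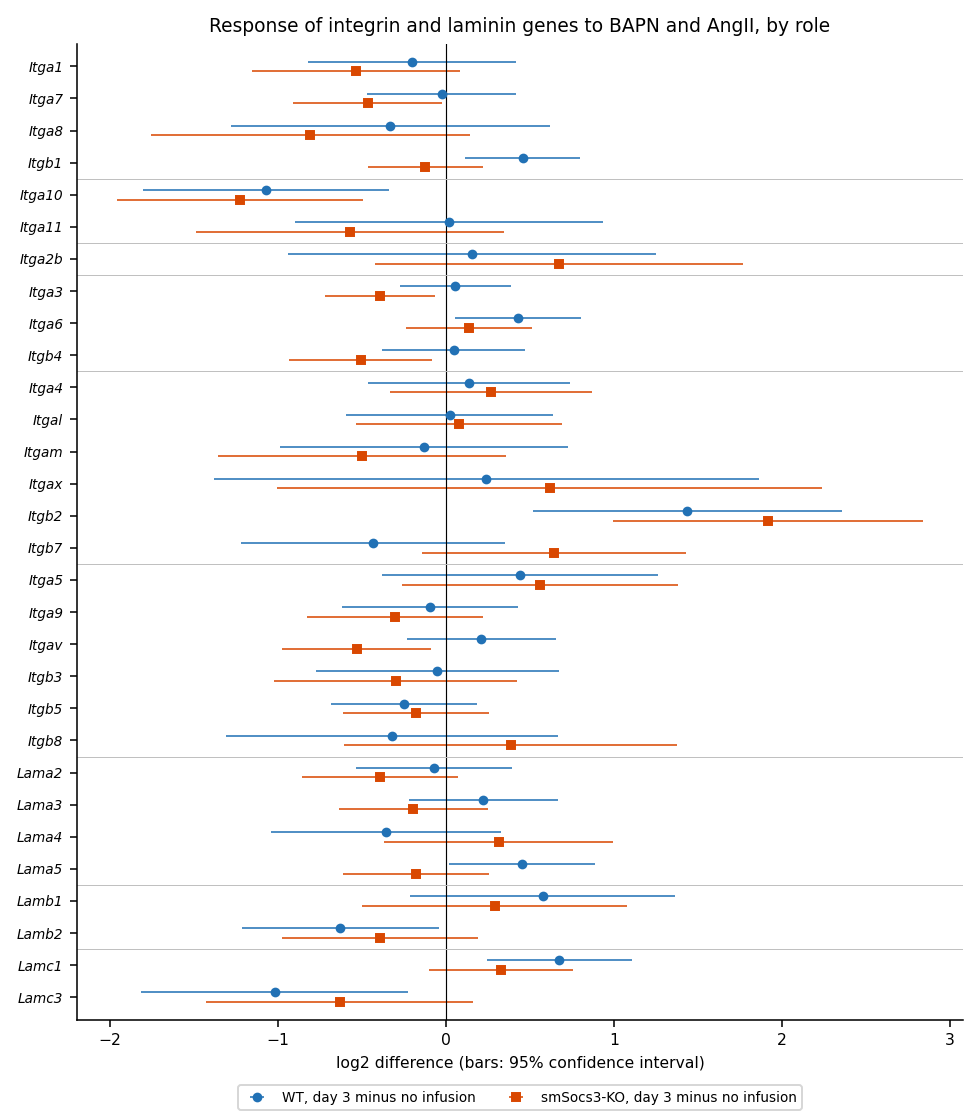
Log2 difference between day 3 of BAPN + AngII and no infusion for the tested members described here, in WT (circles) and in aortae labelled smSocs3-KO (squares), with 95% confidence intervals of the limma fit; grey lines separate the roles. The intervals of Itgb2 and Itga10 lie on 1 side of 0 in both genotypes, and the value of Itgam is that of the probe with the CA run.

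The gamma chains of laminin moved in both directions. Lamc1, the gamma chain of most vascular laminins, was 4.74, 4.77 and 4.86 in unchallenged WT, 5.67, 5.40 and 5.33 in challenged WT, 4.35, 4.97 and 4.67 in unchallenged smSocs3-KO and 5.26, 4.93 and 4.78 in challenged smSocs3-KO. The WT groups did not overlap and the smSocs3-KO groups did. It rose 1.42-fold in the mean of both genotypes (log2 difference 0.50, SE 0.14, limma adjusted p = 0.0270), with 0.68 in WT (limma adjusted p = 0.0664) and 0.33 in smSocs3-KO (limma adjusted p = 0.322). The call was lost without replicate 1 of unchallenged WT (0.49, limma adjusted p = 0.0685), replicate 2 of unchallenged WT (0.50, 0.0637), replicate 1 of challenged WT (0.45, 0.0720) or replicate 2 of challenged smSocs3-KO (0.43, 0.0592). It was also lost with quantile normalization (0.31, limma adjusted p = 0.0995), normexp and quantile normalization (0.32, 0.0523), the deposited table (0.31, 0.1004), no filter on dim probes (0.0569) and the replicate block (0.53, 0.106), and held in the other 15 of 24 alternatives.

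Lamc3, a gamma chain of less common laminins, was 3.48, 3.66 and 3.44 in unchallenged WT, 1.90, 2.20 and 3.43 in challenged WT, 3.88, 2.98 and 3.31 in unchallenged smSocs3-KO and 2.81, 2.99 and 2.48 in challenged smSocs3-KO. Replicate 4 of challenged WT lay just under the unchallenged WT arrays, and 1 challenged smSocs3-KO array lay above the lowest unchallenged one. Lamc3 fell 1.77-fold in the mean of both genotypes (log2 difference -0.83, SE 0.25, limma adjusted p = 0.0407). That call held without replicate 4 of challenged WT (-1.05, limma adjusted p = 0.00254) or replicate 3 of unchallenged smSocs3-KO (-0.93, limma adjusted p = 0.0336), and was lost without any of the other 10 arrays (-0.88 to -0.67, limma adjusted p 0.0512 to 0.0964) and with the slide as a block (-0.70, limma adjusted p = 0.0813), the median of each array (-0.62, 0.109), no filter on dim probes (0.0714) and the replicate block (-0.74, 0.144), so that it was lost in 14 of 24 alternatives. The slide block and the fit without replicate 1 of unchallenged smSocs3-KO, both in that count, give the same estimate here.

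Of the beta chains, Lamb2 differed by -0.51 (SE 0.19, limma adjusted p = 0.0713) and by -0.66 without replicate 4 of challenged WT (limma adjusted p = 0.00920). Lamb2 was called in 6 alternatives and not in the other 18, and 2 of the 12 fits that leave out 1 array called it. Lamb1 differed by 0.43 (SE 0.25, limma adjusted p = 0.224).

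The alpha chains, which carry most of the receptor binding sites of a laminin, were not called. Lama5, the alpha chain of mature vascular basement membrane, was 4.42, 4.44 and 4.68 in unchallenged WT, 4.87, 4.99 and 5.05 in challenged WT, 4.69, 4.54 and 4.79 in unchallenged smSocs3-KO and 4.84, 4.06 and 4.58 in challenged smSocs3-KO. The WT groups did not overlap and the smSocs3-KO groups did. Its challenge difference was 0.46 in WT (SE 0.20, limma adjusted p = 0.170) and -0.18 in smSocs3-KO (SE 0.20, limma adjusted p = 0.589), and the difference between these responses was -0.64 (SE 0.28, limma adjusted p = 0.925). Lama4, the alpha chain found around endothelium and smooth muscle, differed with challenge by -0.36 in WT and 0.31 in smSocs3-KO, Lama2, the alpha chain of muscle laminin, by -0.07 and -0.39, and Lama3, the alpha chain of epithelial laminin, by 0.22 and -0.19.

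**Figure D4:**
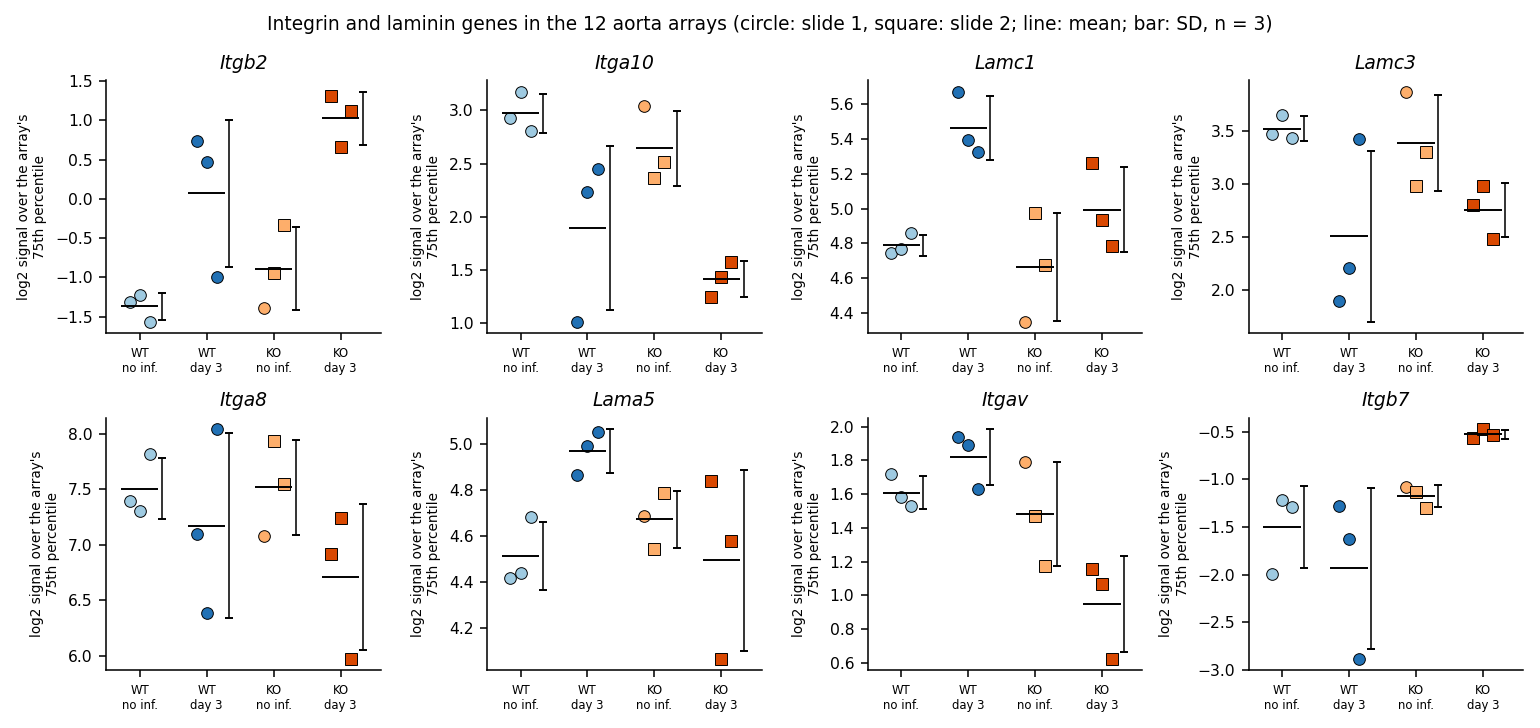
Log2 signal over the array's own 75th percentile for 8 members, by group; each point is 1 array, lines are group means and bars SD (n = 3), with a separate vertical scale for each gene and KO for the label smSocs3-KO (no inf., without infusion). Itgb2 lies higher and Itga10 lower on the challenged arrays of both genotypes without overlap. Itgav and Itgb7, shown for their large day 3 differences, do not overlap between genotypes at day 3, as 20.5% of all genes do not. Genotype and slide cannot be told apart there.

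Genes that work with the members were examined as 3 lists, in a comparison (the mean challenge response) where 13.6% of all genes were called higher and 9.18% lower. Of 16 tested integrin ligands 5 rose and 1 fell in the mean challenge response (median 0.34), the largest being the cytokine osteopontin Spp1 (4.94, SE 0.83, limma adjusted p = 0.00661), the endothelial adhesion molecule Vcam1, a ligand of alpha4 integrins (1.29, SE 0.27, limma adjusted p = 0.0107), and nephronectin, Npnt, a ligand of alpha8beta1 (-0.95, SE 0.27, limma adjusted p = 0.0329). Of 14 basement membrane partners of laminin 3 rose and 1 fell (median -0.04): Nid2 (1.02) and Nid1 (0.55), nidogens that link laminin to collagen IV, and Col4a2 (0.29) rose, and Npnt, which stands on both lists, fell. Of 20 tested genes of the adhesion machinery inside the cell 2 rose and 1 fell (median -0.04), namely the leukocyte kindlin Fermt3 (1.11, limma adjusted p = 0.0165), the beta1 tail-binding protein Itgb1bp1 (0.47, limma adjusted p = 0.0411) and the PINCH adaptor Lims2 (-0.71, limma adjusted p = 0.0385). Endothelial genes, whose cells also carry beta1 and laminin receptor integrins, had 1 of 8 called higher, and of 6 tested platelet genes 1 rose.

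Between the genotypes no member was called, either before challenge, where 0.0264% of all genes were called, or at day 3, where 1.11% were. Unadjusted p was below 0.05 for 1 member before challenge (4.4% of all genes) and for 10 at day 3 (16.2% of all genes). The groups were free of overlap for 2 members before challenge (all genes 11.1%) and for 11 at day 3 (all genes 20.5%), and among those 11 Itgav, Itga3, Lama5, Lamc1, Itgb1, Lama3 and the Itgam probe with the run were lower and Itga6, Lama4, Itga2b and Itgb7 higher in the arrays labelled smSocs3-KO. On the Itgam probe at chr7:135260275-135260334 the day 3 groups overlapped and the difference was 0.98 (SE 0.33, limma adjusted p over all kept probes = 0.204). The 1 member with an unadjusted p below 0.05 before challenge was Itga6, the alpha subunit of laminin receptors, at 3.28, 3.48 and 3.44 in WT and 3.85, 4.07 and 4.20 in smSocs3-KO (difference 0.64, SE 0.17, limma adjusted p = 0.627). Within slide 1, which holds 1 unchallenged smSocs3-KO array, the Itga6 difference was 0.45. A second Itga6 probe lay closer between the genotypes, with means of 0.73 in unchallenged WT and 0.94 in unchallenged smSocs3-KO.

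At day 3 the largest negative difference was that of Itgav, the alpha subunit shared by the vitronectin receptors that bind RGD peptides and activate latent TGF-beta. It was 1.72, 1.58 and 1.53 in unchallenged WT, 1.94, 1.89 and 1.63 in challenged WT, 1.79, 1.47 and 1.17 in unchallenged smSocs3-KO and 1.16, 1.07 and 0.62 in challenged smSocs3-KO. The challenged smSocs3-KO arrays were the lowest 3 of the 12. The day 3 difference was -0.87 (SE 0.20, limma adjusted p = 0.0693), and -0.40 with the slide as a block (limma adjusted p = 0.531). Itgb3, a partner of Itgav, was 4.59, 5.24 and 5.23 in unchallenged WT, 4.55, 5.11 and 5.24 in challenged WT, 4.54, 5.23 and 4.07 in unchallenged smSocs3-KO and 4.61, 3.90 and 4.44 in challenged smSocs3-KO. The day 3 groups overlapped, the difference was -0.66 (SE 0.33, limma adjusted p = 0.355), and a second Itgb3 probe gave -0.27. That second probe was far dimmer, with a mean of -1.42 against 5.02 in unchallenged WT. With challenge it differed by 0.56 in WT and 0.23 in smSocs3-KO, and the first probe by -0.05 and -0.30.

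The largest positive difference at day 3 was that of Itgb7, which forms leukocyte receptors for VCAM-1, MAdCAM-1 and E-cadherin. It was -1.99, -1.22 and -1.29 in unchallenged WT, -1.28, -1.63 and -2.89 in challenged WT, -1.08, -1.13 and -1.30 in unchallenged smSocs3-KO and -0.57, -0.47 and -0.54 in challenged smSocs3-KO. The challenged smSocs3-KO arrays were the highest 3 of the 12. The difference was 1.41 (SE 0.36, limma adjusted p = 0.0927), 0.93 without replicate 4 of challenged WT (limma adjusted p = 0.0729) and 1.55 with the slide as a block (limma adjusted p = 0.298).

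Itga2b and Itgb8 followed. Itga2b, at -4.64, -3.69 and -3.93 in challenged WT and -3.02, -3.55 and -2.12 in challenged smSocs3-KO, was near background, and its day 3 difference of 1.19 (SE 0.50, limma adjusted p = 0.273) became -0.12 with the slide as a block, a change that comes from the 1 unchallenged smSocs3-KO array on slide 1 (-4.44). Itga2b was -4.81, -3.65 and -4.27 in unchallenged WT and -4.44, -3.58 and -2.68 in unchallenged smSocs3-KO, where the groups overlapped. Itgb8, the beta subunit that pairs with Itgav, was -3.23, -2.76 and -2.73 in unchallenged WT, -2.72, -2.85 and -4.12 in challenged WT, -2.13, -2.98 and -2.52 in unchallenged smSocs3-KO and -2.36, -2.84 and -1.26 in challenged smSocs3-KO. Its day 3 difference was 1.07 (SE 0.45, limma adjusted p = 0.274), and 0.63 without replicate 4 of challenged WT. Lama4 differed by 0.93 (SE 0.31, limma adjusted p = 0.187) and by 0.42 with the slide as a block, and Itgb2 by 0.96 (SE 0.42, limma adjusted p = 0.293), 0.42 without replicate 4 of challenged WT and 0.20 with the slide as a block.

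**Figure D5:**
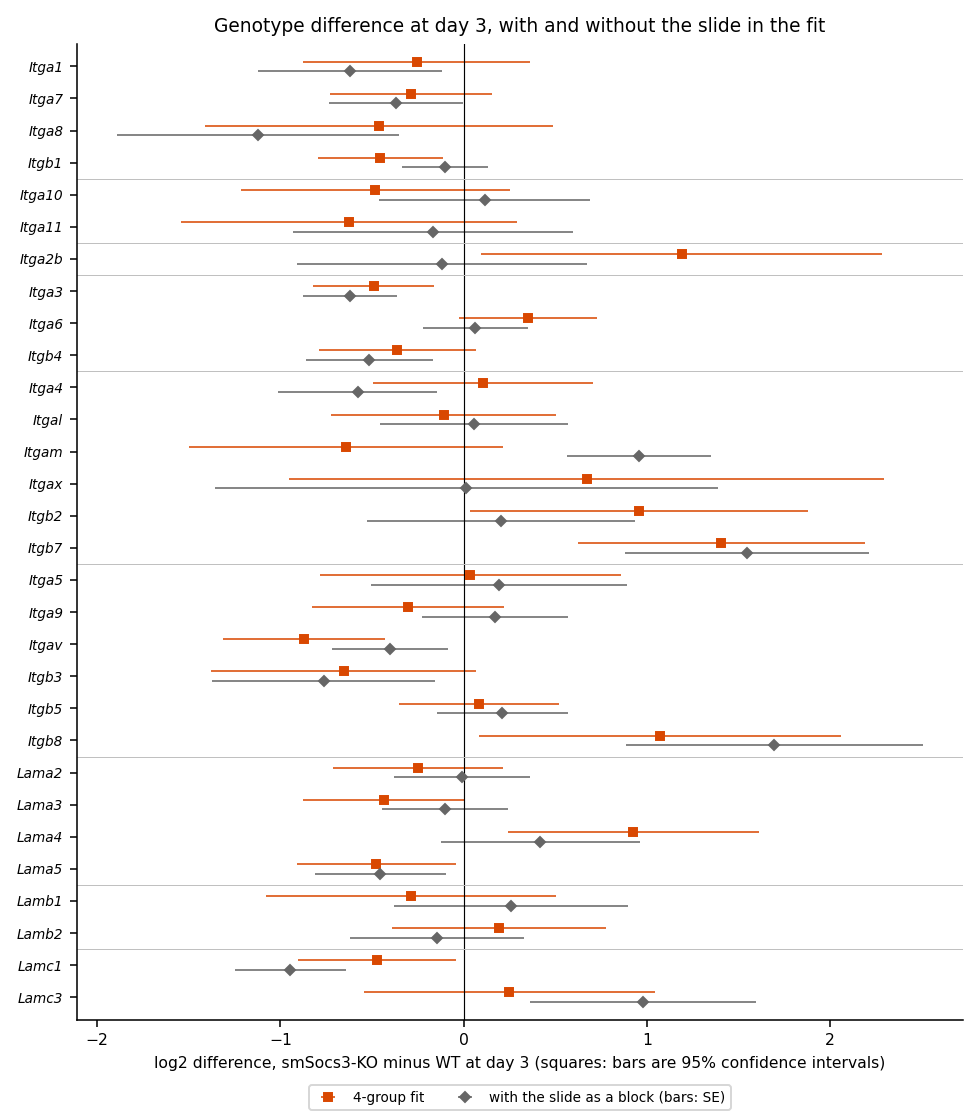
Log2 difference between aortae labelled smSocs3-KO and WT at day 3 for the tested members described here, from the fit of the 4 groups (squares, 95% confidence interval) and from a fit that adds the slide as a block (diamonds, SE). No member shown was called in either fit, and Itga10, Itga2b, Itga4, Itgal, Itgam (the probe with the CA run), Itga9, Lamb1 and Lamb2 changed sign between them.

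Over the 31 members the median day 3 difference was -0.26, beside -0.08 over all genes. With the slide as a block, which again rests on that 1 array, it was -0.01. Markers of cell types differed between the genotypes as well. At day 3 all 9 macrophage and all 5 pan-leukocyte genes pointed higher in smSocs3-KO (medians 0.64 and 1.11). In log2 over unchallenged WT, the macrophage mean was 1.96, 1.36 and 0.04 on replicates 1, 3 and 4 of challenged WT. It was 1.97, 1.90 and 1.83 in challenged smSocs3-KO. The pan-leukocyte mean was 1.91, 1.61 and -0.12 in challenged WT and 2.63, 1.87 and 1.99 in challenged smSocs3-KO. Replicate 4 of challenged WT was the lowest of these arrays on both lists. Before challenge and at day 3, 7 of 7 mesothelial and epithelial genes pointed higher in smSocs3-KO (medians 2.02 and 2.58). Their summed linear signal was 17.7 to 40.1 and 17.2 to 29.0 in WT without and with challenge. In smSocs3-KO it was 53.4 to 95.3 and 48.0 to 83.6. No gene of these 3 lists was called between genotypes, 2 of 7 fibroblast genes were called higher at day 3, and the part of these cell types in the integrin and laminin values was not tested.

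The difference between the 2 challenge responses, smSocs3-KO minus WT, was called for no member and for 0% of all genes, of which 1215 had an unadjusted p below 0.05. An unadjusted p below 0.05 was found for 3 members, all of them negative: Itgav (-0.74, SE 0.28), Lama5 (-0.64, SE 0.28) and Itgb1 (-0.58, SE 0.22), with limma adjusted p values of 0.914, 0.925 and 0.914. In WT each of these 3 pointed higher with challenge (0.21, 0.46 and 0.46) and in smSocs3-KO each pointed lower (-0.53, -0.18 and -0.12), except that Lama5 was 0.031 and Itgb1 0.088 there with arrays scaled on their median. Itgb7 had the largest positive value (1.08, SE 0.50, limma adjusted p = 0.932).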

How the data were processed

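The authors deposited the scanner output of 12 one-colour arrays, made with Agilent Feature Extraction (version 9.5.1.1 in the submitters' processing notes), in which the background-subtracted processed signal is an intensity on a linear scale, and a table of normalized intensities, used as an alternative. Here log2 of the processed signal was taken, the 75th percentile of each array subtracted, and control and outlier spots left out. A probe was kept if well above background on all 3 arrays of a group (32291 of 55681), and the brightest kept probe stood for a gene. The log2 values were tested with limma 3.58.1 in R 4.3.3 (lmFit and eBayes, 4 group means, 12 arrays, 6 comparisons, Benjamini-Hochberg), with adjusted p under 0.05 as the call. The 3 arrays of a group limit the precision. No member passed the threshold of the study's methods (p under 0.01 and over 4-fold) in a pairwise comparison. The fit was tested on simulated data. The members and gene lists were chosen with earlier results of these data known. Values per array are given for Itga8, Itgam and Lama5, called members, and the 3 largest rises and falls in the mean challenge response and at day 3, of which 1 is not reported here. Others named were chosen after their values were seen. Probe positions are those of the array's annotation (mm9), and the exons they fall in were not looked up. Alternatives were the background correction, normalization, filter, probe choice, moderation, slide, replicate number and leaving out each array. Leaving out probes with a CA run and testing each probe alone were added after seeing the data.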

Additional observations from a re-analysis of the deposited data

Results flagged for a closer look

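Itgav was picked out because its arrays moved in opposite directions in the 2 genotypes: all 3 challenged WT arrays lay above the mean of unchallenged WT and all 3 challenged smSocs3-KO arrays below the mean of unchallenged smSocs3-KO. The difference between the responses was -0.74 (SE 0.28, limma adjusted p = 0.914), and -0.59 with the slide as a block (limma adjusted p = 0.696). Groups of 3 arrays were not searched for single outlying arrays.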

How the results depend on the processing

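The rise of Itgb2 and the fall of Itga10 in the mean challenge response were called under every alternative but the replicate block and the rule of p under 0.01 and over 4-fold. Subtracting the median of each array in place of its 75th percentile raised every challenge difference by 0.19 to 0.21. The precision is limited by 3 arrays in a group, by signal near background for Itga2b and by the confounding of slide with genotype, and where results moved the cause was not tested unless the alternative left out arrays, genes or probes. Deviations of same-numbered arrays correlated at -0.40 to 0.46 over 11 pairs, 4 of them over 0.1. Arrays with different numbers were not compared, so whether the numbers pair the arrays is not known. With the replicate block 0 members were called in smSocs3-KO and 0 in the mean response, where Itgb2 had 1.63 (limma adjusted p = 0.0553) and Itga10 -1.22 (limma adjusted p = 0.0634), and Itgam in WT was 0.048. The mean response called 4 members, 0 by p under 0.01 and over 4-fold, 2 without the filter on dim probes, 5 with probes holding a CA run left out (Itgam added), and 2 to 8 when 1 array was left out. The smSocs3-KO response called 1, but 0 by the 4-fold rule, without the filter, with the slide as a block and within slide 2, and 0 to 2 when 1 array was left out. The WT response called 0, but 1 with normexp and quantile normalization (Itga10), 1 with trended and robust moderation and 1 with the slide as a block (both Lamc1), and 0 to 6 when 1 array was left out. At day 3 between genotypes 0 were called, but 1 with normexp and quantile normalization (Itgb7), 1 with normexp and the 75th percentile (Itgav), 1 with trended and robust moderation (Itgav) and 2 with the mean of all kept probes (Itgav and Lama3), and 0 to 1 when 1 array was left out. Before challenge and for the difference between responses 0 were called in each alternative.

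Of 1263 values of single members under alternatives, 1181 kept sign and side of the threshold and 21 changed sign. With probes holding a CA run left out, Itgam was 0.60 in WT, 1.20 in smSocs3-KO, 0.90 in the mean (limma adjusted p = 0.0215) and 0.98 at day 3 between genotypes. With the mean of all kept probes the same were 0.27, 0.38, 0.32 and 0.10. The remaining sign changes of Itgam were 0.063 in WT with the median of each array, 0.051 in WT without replicate 4 of challenged WT (-0.34 to 0.051 when 1 array was left out), 0.033 in smSocs3-KO with the slide as a block, within slide and without replicate 1 of unchallenged smSocs3-KO (-0.77 to 0.033 when 1 array was left out), and 0.96 at day 3 with the slide as a block. Itga10 became 0.11 and Itga2b -0.12 at day 3 with the slide as a block, and Lama5 0.031 in smSocs3-KO with the median of each array. When 1 array was left out, Lamc3 at day 3 ranged from -0.056 (without replicate 1 of challenged WT) to 0.71, Itga8 in WT from -0.76 to 0.064 (without replicate 3 of challenged WT), and Lama5 in smSocs3-KO from -0.35 to 0.035 (without replicate 3 of challenged smSocs3-KO).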
